A study of Mus musculus with 5 samples.

Results

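Translation factors are the proteins that load ribosomes onto mRNA, move them along it and release them. Their messages were examined in haematopoietic stem cells (HSCs) of mouse bone marrow. The genes were taken by name: rows of the count table called Eif1 to Eif6 or Eef1 and Eef2 with any suffix, plus Pabpc1, Pabpc4, Etf1 and Gspt1, without the eIF2 kinases and the Y-linked Eif2s3y. Of 35976 gene rows, 65 fitted these names, and the 61 with at least 100 counts over the 5 libraries are described here. The 4 below that minimum were Eif3j2 with at most 5 counts in a library, and Eef1a2, Eif4e1b and Eif2c5 with 0 in each. All 61 were among the 11146 genes that passed the filter on low counts.

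The series holds 5 Smart-seq2 libraries, each made from 30 sorted HSCs (lineage-negative, Sca-1+, c-kit+, CD34-, CD150+) of a C57BL/6 mouse. Labels give 2 WT and 3 Ythdf3-/- libraries; neither age nor sex nor the design of the allele is stated. The series text counts 2 knockout and 3 wild-type samples instead and says that they came from different mice. YTHDF3 is a cytoplasmic protein that binds N6-methyladenosine in mRNA, so the comparison asks which messages differ in stem cells without it. Counts of Ythdf3 went against the labels: 20 and 29 in the libraries labelled WT, and 2, 339 and 366 in those labelled Ythdf3-/-. Every direction given here therefore refers to a label, not to a verified genotype. Throughout, 5 values in a row stand in the order WT 1, WT 2, Ythdf3-/- 1, Ythdf3-/- 2 and Ythdf3-/- 3. Levels are in CPM, the counts scaled to the library's total.

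Initiation starts when eIF2 brings the initiator tRNA to the small ribosomal subunit, together with eIF1, eIF1A, eIF3 and eIF5. The cap-binding complex eIF4F recruits the mRNA, and after the start codon is found eIF5B joins the large subunit. In elongation eEF1A delivers each aminoacyl-tRNA and eEF2 translocates the ribosome, until eRF1 and eRF3 end the chain. HSCs are known for a low rate of protein synthesis compared with their progeny.

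Library depth ran from 6357862 to 16650134 counts. All 10 HSC genes listed as markers had counts in every library, though some were nearly absent from single ones. Slamf1, which encodes CD150, had 1 count in WT 2, Fgd5 had 2 and 5 counts in Ythdf3-/- 1 and 3, and Ctnnal1 had 5 in Ythdf3-/- 1. The 8 T and NK cell genes in the table summed to 3.48, 10.4, 93.1, 92.9 and 30.5 CPM, higher in each library labelled Ythdf3-/-. Cd3d, Cd3g and Gzma were at 0 throughout, while Lck had 0, 73, 279, 104 and 90 counts. Other genes of that list were patchy. Nkg7 had 14, 19, 313, 412 and 8 counts, Klrb1c had 24, 1, 0, 327 and 115, and Cd2 had counts in WT 1 alone (20). Of the 3 that were tested, 1 had groups that did not overlap. Sums of other lists lay apart between the labels too. The 10 erythroid genes summed to 2600.5, 2925, 1391.5, 2071 and 1905 CPM, lower in each library labelled Ythdf3-/-. Car2 alone had 43230, 15634, 7269, 18446 and 12991 counts, most of each sum. Every other gene of that list had at most 19 counts in WT 1, so its sum is nearly all Car2. Slc4a1 had 940 counts in Ythdf3-/- 1, Tfrc 313 in Ythdf3-/- 2 and Klf1 343 in Ythdf3-/- 3. The 9 megakaryocyte genes in the table also summed to less in each library labelled Ythdf3-/-, at 425, 297, 173, 222 and 158.5 CPM. The 10 monocyte and macrophage genes summed to more there, at 99.2, 49.1, 164, 105 and 343 CPM, by a small margin between WT 1 and Ythdf3-/- 2. Members were patchy. C1qc had 10, 0, 364, 298 and 259 counts, C1qb had 12, 425, 0, 280 and 242, and Cd68 had 393, 2, 2, 0 and 860. Csf1r and Fcgr3 had counts in WT 1 alone (12 and 9). Among the 6 that were tested, 1 had groups that did not overlap. Markers also differed between libraries of the same label. Summed over 12 mitosis genes, the level was 101, 765, 183, 77.8 and 37.6 CPM, and 6 of the 8 that were tested were highest in WT 2; Bub1 was at 0 there. Of 7 tested erythroid genes 5 were highest in WT 2, where Gata1 had 1061 counts against at most 6 elsewhere. The 4 globin genes summed to 35523 CPM in Ythdf3-/- 1 and to at most 423 CPM elsewhere. The 10 B-lymphoid genes summed to 601, 59.4, 1697, 221 and 97.5 CPM. WT 2 and Ythdf3-/- 1 thus stand apart. Several results that rest on WT 2 are given without it as well. Ythdf3-/- 1 is left out together with WT 2, and on its own only within the ranges over libraries left out.

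Translation factor messages made up a similar part of each library, 2.01%, 2.34%, 2.01%, 2.14% and 1.91% of all counts. Eef1a1 alone gave between 5062 and 6098 CPM. None of the 61 genes passed the edgeR quasi-likelihood test between the labels after Benjamini-Hochberg adjustment, in either direction; over all genes tested 0% passed. The smallest adjusted p among them was 0.964. DESeq2 called 0 of them, while it called 4.7% of the genes it tested, and limma voom called 0 of them and 0% of all. At an unadjusted p under 0.05 in edgeR stood 6 of 61 (9.84%), against 4.85% of all genes tested. One was higher under the Ythdf3-/- label, Eif1a, and 5 were lower: Eif1ax, Eif5b, Eif4ebp2, Eif4ebp3 and Gspt1. Among all genes 2.11% were higher and 2.75% lower by that rule.

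The fitted level was lower under the Ythdf3-/- label for 42 of 61 factors (68.85%), against 52.2% of all genes. Their median log2 fold change (Ythdf3-/- label minus WT label) was -0.32, beside -0.06 over all genes. The gap, the factors' median minus that of all genes, was -0.26. Without WT 2 the factors' median was -0.03 with 31 of 61 lower. The median of all genes kept in that fit was 0.22 with 44.5% lower, a gap of -0.25. Without WT 1 the median of all genes was 0.31 and the gap -0.61. Without both WT 2 and Ythdf3-/- 1 the factors' median was -0.05, with 32 of 61 lower, and the gap -0.13. Each of these 3 fits leaves 1 library under the WT label, and the values given below without WT 1 or WT 2 carry the same shift of all genes. With limma voom the gap was -0.07. In WT 2 24 of the 61 had their highest level (39.3%), against 22.9% of all genes tested. Most of the tested mitosis and erythroid genes above were highest in that library too, and their part in these values was not tested. The T and NK genes and the monocyte and macrophage genes summed to more in each library labelled Ythdf3-/-. The erythroid genes, whose sum is mostly Car2, and the megakaryocyte genes summed to less there. The part of these 4 lists was not tested either.

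For 14 of 61 factors (22.95%) the groups did not overlap, the lowest library of one label being above the highest of the other. Over all genes tested the share was 20.7%, with 9.74% higher and 11.0% lower under the Ythdf3-/- label. Higher were 6 factors (Eif1a, Eif3c, Eif4a3, Eif5a, Eif6 and Eif2s3x) and lower were 8 (Eif1ax, Eif5b, Gspt1, Pabpc4, Eif4ebp2, Eif4ebp3, Eif4a1 and Eef1g). The count is near the background. With TMM-scaled library sizes 13 did not overlap, as Eif3c and Eif6 then overlapped and Eif1ad no longer did.

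**Figure D1:**
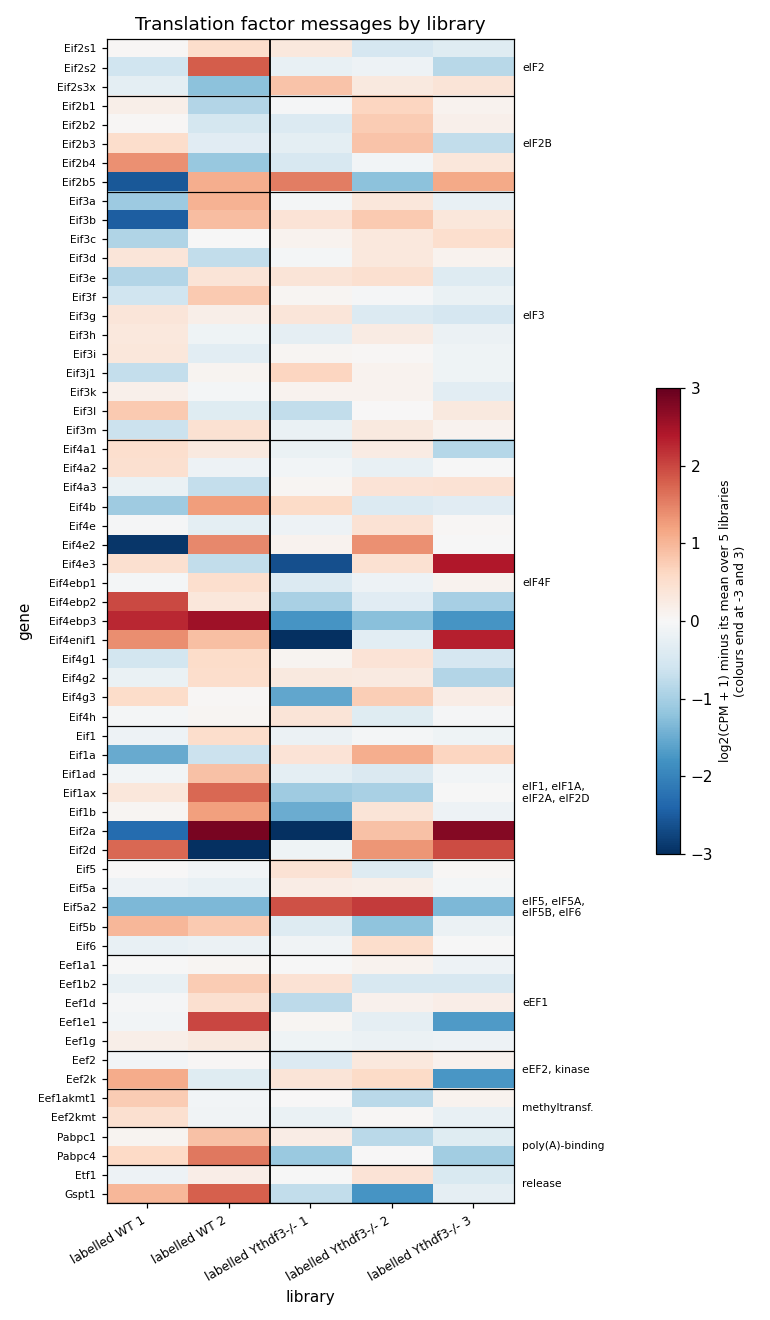
Level of the 61 translation factor messages in each library, as log2(CPM + 1) minus the gene's mean over the 5 libraries; rows are genes grouped by complex, columns are libraries, and the vertical line parts the labels. Most rows of eIF3 and eEF1 are pale, while Eif2a, Eif2d, Eif4enif1, Eif4e2 and Eif4e3 vary strongly among libraries of the same label.

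Many messages of the translation apparatus begin with a 5′ terminal oligopyrimidine stretch, a run of C and T at the transcription start through which mTOR signalling and LARP1 control their use. Bases around the annotated start were read from RefSeq (GRCm38.p6) from 20 before to 20 after it, for the 46 factors that the promoter table holds. Shown are 3 starts with a long pyrimidine run and 4 starts of factors that were lower in every library labelled Ythdf3-/-, 5′ to 3′, with the longest unbroken run of C and T in capitals.
Eef1a1, chr9:78481705-78481744, minus strand: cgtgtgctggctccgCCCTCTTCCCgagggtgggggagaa
Eif3f, chr7:108934395-108934434, plus strand: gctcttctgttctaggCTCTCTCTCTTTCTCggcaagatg
Eif2s3x, chrX:94212632-94212671, minus strand: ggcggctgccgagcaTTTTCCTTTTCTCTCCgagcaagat
Eif1ax, chrX:159372158-159372197, plus strand: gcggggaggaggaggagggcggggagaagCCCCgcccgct
Eif5b, chr1:37997990-37998029, plus strand: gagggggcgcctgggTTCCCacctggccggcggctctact
Gspt1, chr16:11254306-11254345, minus strand: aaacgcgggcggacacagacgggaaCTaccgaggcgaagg
Eif4ebp2, chr10:61452650-61452689, minus strand: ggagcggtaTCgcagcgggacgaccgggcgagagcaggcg

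The run was 10 bases long at Eef1a1, 15 at Eif3f and 16 at Eif2s3x, and 4, 5, 2 and 2 at Eif1ax, Eif5b, Gspt1 and Eif4ebp2. Other factors whose groups did not overlap had short runs in either direction. The longest was 4 at Eif3c, 5 at Eif4a3 and 3 at Eif5a, which were higher under the Ythdf3-/- label. It was 3 at Eif4a1 and 1 at Pabpc4, which were lower. A run of at least 8 letters, each C or T and on the sense strand alone, stood in this window for 9 of 46 factors (19.6%). Such a run was present for 18.4% of the 27025 genes with a RefSeq start. The 9 factors had a median log2 fold change of -0.02, with 5 fitted lower, and the 37 without a run had -0.42, with 26 fitted lower. Annotated starts can lie away from those used in these cells. A run in this window, that of Eef1a1 included, therefore need not lie in the message. The absence of a run says only that these letters are not in this window. Runs were counted anywhere in the window and at any annotated start of a gene. That of Eif3m, for example, lies wholly before the annotated start. The split is thus by runs in the window, not by 5′ terminal oligopyrimidine stretches.

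Messages of eIF1A, which with eIF1 holds the scanning ribosome open for start codon selection, gave the largest difference in share among the 11 pairs of paralogues compared. Eif1a (chromosome 18, 46597701 to 46616456 in GRCm38) stood at 40.5, 75.4, 157, 249 and 186 CPM. All 3 libraries labelled Ythdf3-/- lay above both labelled WT. The means were 57.9 ± 24.7 CPM (SD, n = 2) and 197.5 ± 47.2 CPM (SD, n = 3), and the log2 fold change was 1.67 (SE 0.59; edgeR adjusted p = 0.964). Its X-linked paralogue Eif1ax (chromosome X, 159372178 to 159389928) took the opposite course, with 80.6, 211, 29.9, 31.7 and 62.7 CPM. The groups again did not overlap (log2 fold change -1.93, SE 0.79; edgeR adjusted p = 0.973). Left without WT 2, the difference of Eif1ax was -0.99.

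Of the counts of both genes, Eif1a had 33.4% (95% Wilson interval 31.4 to 35.5), 26.3% (24.6 to 28.0), 84.0% (81.8 to 86.0), 88.7% (87.4 to 89.9) and 74.8% (72.7 to 76.8). Both coding sequences are 432 bases long, so the share is the same per coding length. The mean share was 29.9 ± 5.05% (SD, n = 2) under the WT label and 82.5 ± 7.10% (SD, n = 3) under the Ythdf3-/- label, a difference of 52.6 percentage points. It stayed between 49.1 and 56.5 points when each library was left out in turn. An exact permutation test, two-sided, gave p = 0.2, the smallest that 2 against 3 libraries allow, and 0.825 after adjustment over 11 paralogue pairs. No stretch of 100 bases of either transcript recurred exactly in a transcript of another annotated gene. The intervals cover counting error alone.

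**Figure D2:**
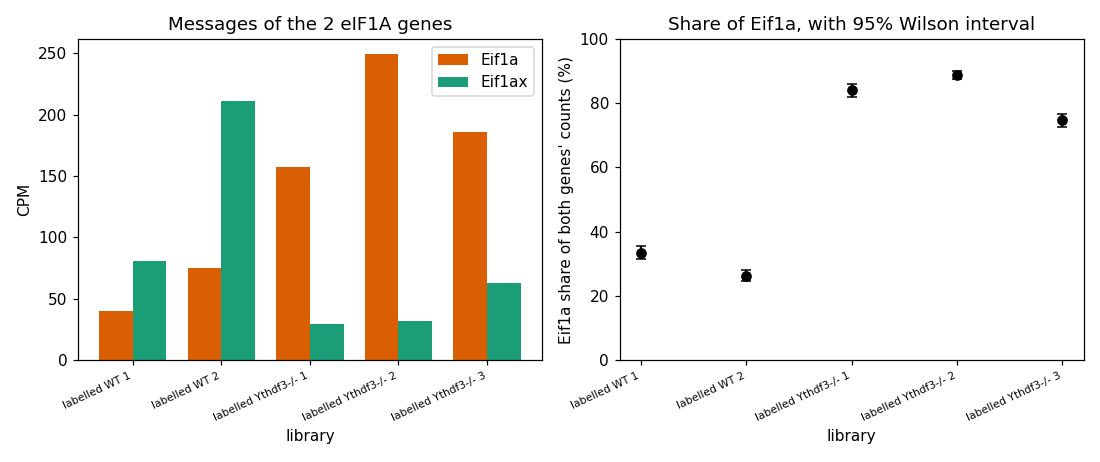
Left, level in CPM of Eif1a and Eif1ax in each library; right, share of Eif1a in the counts of both genes, with 95% Wilson intervals. Eif1a has at most 33.4% of the pair's counts in the libraries labelled WT and at least 74.8% in those labelled Ythdf3-/-.

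The other genes of the eIF1 and eIF1A group had groups that overlapped in CPM. Eif1, the start codon gatekeeper, stood at 428, 691, 424, 461 and 438 CPM, level in 4 libraries and higher in WT 2. Its paralogue Eif1b had 96.1, 218, 32.1, 120.3 and 82.5 CPM, again highest in WT 2. Eif1 made up 78.8 ± 3.98% (SD, n = 2) and 85.5 ± 6.93% (SD, n = 3) of the counts of this pair (exact permutation test, two-sided, p = 0.4). Eif1ad had 134 and 264.5 CPM under the WT label and 117, 105 and 135.5 CPM under the other, and no overlap with TMM-scaled library sizes. The 2 factors that can bring tRNA to the ribosome apart from eIF2, chosen for mention after their values were seen, were patchy. Eif2a had 44, 1145, 0, 290 and 845 counts, and Eif2d had 2869, 7, 298, 1185 and 1432. Neither followed the labels: Eif2a was nearly missing from 1 library of each, and Eif2d from WT 2 alone.

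eIF2 itself, the GTPase trimer that carries the initiator tRNA, had subunits fitted in opposite directions between the labels, none past the test. Eif2s1, the alpha subunit that stress kinases phosphorylate, stood at 164, 227, 197, 112 and 122 CPM (log2 fold change -0.54, SE 0.50, edgeR adjusted p = 0.9998; -0.23 without WT 2). Eif2s2, the beta subunit, had 53.5, 287.5, 69.4, 72.3 and 44.9 CPM. Here WT 2 stood alone, and the difference turned from -1.57 to 0.18 without it. Eif2s3x, the X-linked gamma subunit, was scarce at 8.05, 3.68, 18.9, 12.4 and 13.4 CPM. Its groups did not overlap, with a log2 fold change of 1.27 and an SE of 2.18. Of its 100-base stretches 35.3% recur in the annotated gene Gm2223, so its count is uncertain. The summed level of the trimer was 225, 518.5, 285, 197 and 181 CPM, with the peak in WT 2.

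eIF2B, the exchange factor that recharges eIF2 with GTP, had the reverse profile in the WT pair. Its 5 subunits summed to 521, 255, 343, 517 and 407 CPM, so that WT 2 was the lowest library. Their median log2 fold change was 0.39, with 2 of 5 fitted lower, and no subunit had groups that did not overlap. It was 0.04 without WT 2, below the median of all genes in that fit, and 0.02 without Ythdf3-/- 2. Eif2b1, the alpha subunit, stood at 110.4, 52.7, 94.1, 152 and 104 CPM. The catalytic subunit Eif2b5 had 51, 443, 430, 83 and 361 counts, or 3.06, 49.4, 67.6, 9.14 and 51.5 CPM. It was thus low in 1 library of each label. Eif2b4, the delta subunit, was highest where Eif2b5 was lowest, at 219 CPM in WT 1, against 37.6 in WT 2 and between 59.9 and 107 CPM in the others. Eif2b2 and Eif2b3 ranged from 68.0 to 167 and from 35.5 to 109.6 CPM.

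**Figure D3:**
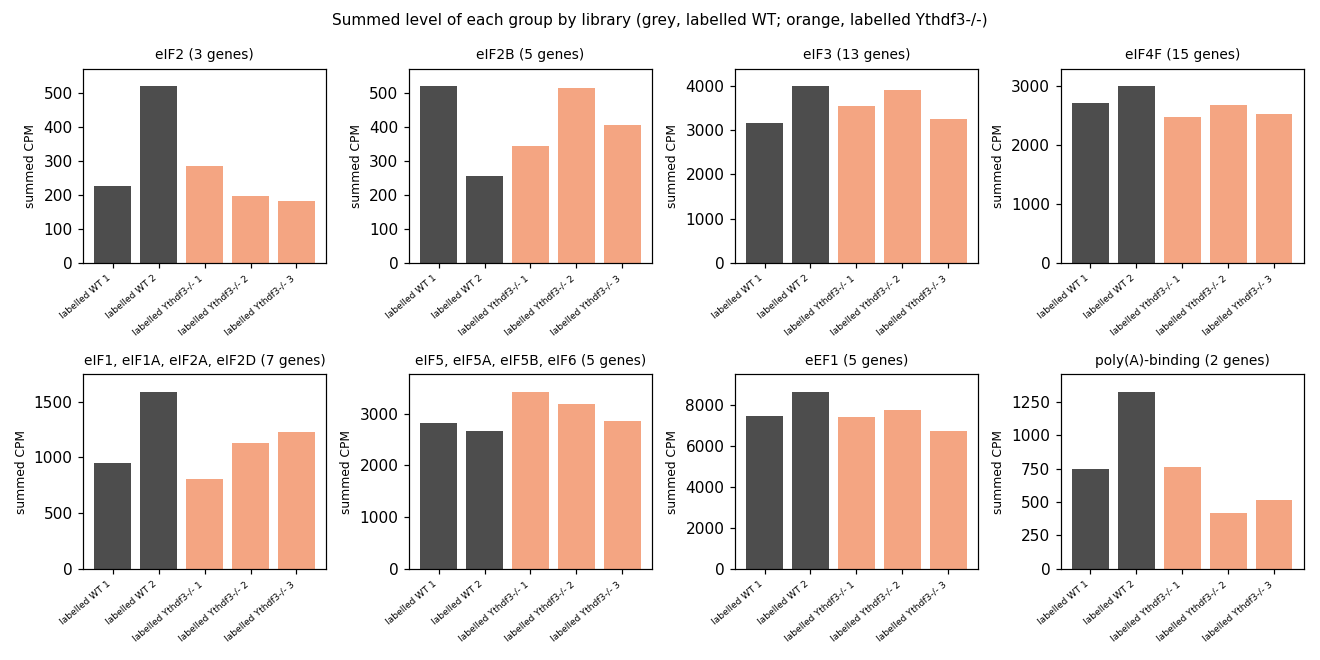
Summed CPM of the measured genes of 8 groups in each library; bars are single libraries, so no error is shown. eIF2, the eIF1 and eIF1A group, eEF1 and the poly(A)-binding proteins peak in WT 2, where eIF2B is lowest. In CPM the sum of eIF5, eIF5A, eIF5B and eIF6 is higher in all 3 libraries labelled Ythdf3-/- than in either labelled WT. The margin is small between Ythdf3-/- 3 (2860 CPM) and WT 1 (2817 CPM). It depends on the scaling: with TMM-scaled library sizes Ythdf3-/- 3 (factor 1.041) falls below WT 1 (0.9887) and WT 2 (0.9417). Eif5a is the largest part of that sum, and Eif5b goes the other way.

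eIF3, the large scaffold on the small subunit, had overlapping levels under both labels. Its 13 measured genes summed to 3171, 3992, 3543, 3904 and 3257 CPM, with a median log2 fold change of -0.14 and 8 of 13 fitted lower. Without WT 2 that median became 0.51, which is 0.30 above all genes in that fit, where it had been below them (-0.07). Only Eif3c, a core subunit, had groups that did not overlap, at 151, 282, 305, 354 and 405 CPM (log2 fold change 0.61, SE 0.43, edgeR adjusted p = 0.9998). The difference was 0.20 without WT 1 and 1.197 without WT 2. Eif3b, the core subunit with an RNA recognition motif, had 26.6 CPM in WT 1, 288 CPM in WT 2 and 202, 259 and 193 CPM under the other label. Eif3a, the largest subunit, stood at 91.4, 400.2, 187, 245 and 166 CPM, so the library extremes were again the WT pair. Without WT 2 its log2 fold change went from -0.41 to 1.09, and that of Eif3b went from 0.36 to -0.53 without WT 1.

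Scaled to exon length, eIF3 subunits were far from equal in message. Eif3k had the highest level per kilobase in each library, from 352 to 484 CPM per kb, and Eif3j1 the lowest, from 3.29 to 8.75 CPM per kb. The median subunit lay between 128 and 209 CPM per kb. Eif3j1 encodes a loosely bound subunit, and 36.0% of its 100-base stretches also occur in the near-copy Eif3j2. The small subunits Eif3g, Eif3h, Eif3i and Eif3m followed Eif3k, with means over the libraries of 286, 292, 264 and 257 CPM per kb. Their levels before scaling ranged from 216.5 to 394.5 CPM for Eif3g, which was lowest in Ythdf3-/- 2 and 3, and from 203 to 436 CPM for Eif3m. Eif3h and Eif3i spanned 309.5 to 467 and 235 to 372.5 CPM. Eif3e and Eif3f spanned 135 to 351 and 224 to 592 CPM, Eif3d spanned 139 to 300 and Eif3l 94.5 to 273.

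eIF4F couples the cap to the ribosome, and its group here holds 15 genes with the helicase cofactors, the 4E-binding proteins and the paralogues. Together they gave 2703, 2994, 2470, 2676 and 2523 CPM, with both libraries labelled WT above the other 3. The median log2 fold change was -0.32, with 11 of 15 fitted lower and a gap of -0.26 to all genes. It became 0.06 without WT 2, which is still below all genes in that fit (-0.15). The cap-binding protein Eif4e was level at 202.5, 170, 189, 281 and 214 CPM. Eif4g1, the scaffold, stood at 80.8, 177, 127, 160.3 and 83.9 CPM, and Eif4g2, a relative that does not bind eIF4E, at 227, 382, 319.9, 317 and 142 CPM. Neither differed beyond the spread within labels (log2 fold changes -0.15 with SE 0.62, and -0.32 with SE 0.50).

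Of the helicases, Eif4a1 had 357, 303, 217, 298 and 137.5 CPM, lower in each library labelled Ythdf3-/- by a small margin (log2 fold change -0.68, SE 0.44, edgeR adjusted p = 0.9998; -0.43 without Ythdf3-/- 3). For 60.8% of its 100-base stretches there is an exact copy in the annotated genes Eif4a-ps4 or Gm5513. Eif4a2 had 579, 372, 391, 358.5 and 416 CPM. Eif4a1 gave 38.1%, 44.9%, 35.7%, 45.4% and 24.9% of the counts of the pair, so the shares overlapped (exact permutation test, two-sided, p = 0.6). Eif4a3, which sits in the exon junction complex and not in eIF4F, went the other way, with 237, 164, 283, 360.0 and 369 CPM (log2 fold change 0.67, SE 0.39, edgeR adjusted p = 0.9998). The cofactor Eif4h was even, between 236 and 395 CPM, while Eif4b, named after its values were seen, had 84.6, 423, 263, 133 and 141 CPM.

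The 4E-binding proteins, which block eIF4E when mTOR is inactive, differed among themselves. Eif4ebp1 was the most abundant, at 246, 367, 195, 233.5 and 277 CPM, with overlapping groups. Eif4ebp2 (chromosome 10, 61428491 to 61452661) stood at 185, 57.9, 23.0, 35.8 and 22.4 CPM, and both libraries labelled WT lay above the rest. The log2 fold change was -2.24 (SE 0.90; edgeR adjusted p = 0.964), and it was -1.22 without WT 1, the library with the highest value. Counts of Eif4ebp3 were 254, 169, 0, 4 and 0. A count of 0 in Ythdf3-/- 1 and 3 allows up to 0.472 and 0.428 CPM, against 15.3 and 18.8 CPM under the WT label. Its edgeR adjusted p was 0.983. No fold is given for it, and 62.8% of its 100-base stretches also lie in the overlapping transcript AC115631.1. As a share of the counts of both abundant genes, Eif4ebp1 had 57.0% and 86.4% in the libraries labelled WT and 89.5%, 86.7% and 92.5% in the others (exact permutation test, two-sided, p = 0.2, adjusted 0.825). Without WT 1 the difference of 17.9 points shrank to 3.17.

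Cap-binding relatives and partners, named after their values were seen, were the least even of the group. Eif4e2 had 80 counts in WT 1 and 1065 in WT 2, with 293, 1016 and 300 under the Ythdf3-/- label. Eif4e3 ranged from 4.40 CPM in Ythdf3-/- 1 to 177 CPM in Ythdf3-/- 3. Eif4enif1, the transporter of eIF4E, had 1269, 487, 3, 204 and 1029 counts. None of these followed the labels. Eif4g3 lay between 16.2 and 82.7 CPM.

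Eif5b, the GTPase that joins the subunits, had a lower level in every library labelled Ythdf3-/- than in either labelled WT. Its level was 235, 203, 89.7, 50.0 and 104.5 CPM, and the 2 libraries labelled WT were close together and both above the rest. The means were 219 ± 22.9 CPM (SD, n = 2) and 81.4 ± 28.2 CPM (SD, n = 3), and the log2 fold change was -1.52 (SE 0.54; edgeR adjusted p = 0.964). With each library left out in turn it ranged from -1.72 to -1.27, with the same sign each time. The gene lies on chromosome 1 (37998010 to 38055579), and its exons overlap those of Rev1 in the annotation. Without strand, reads in the shared part cannot be told apart. Other factors share exons with a neighbour as well, among them Gspt1 (2610020C07Rik), Eif2a (Serp1), Eif2b4 (Snx17) and Eef1b2 (Ndufs1).

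Eif5a, whose hypusine-modified protein helps ribosomes through stalling sequences, was the second most abundant factor per kilobase after Eef1a1, with means of 878 and 3158 CPM per kb. It stood at 1875, 1774, 2435, 2348 and 2004 CPM. All 3 libraries labelled Ythdf3-/- were higher, by a log2 fold change of 0.22 with an SE of 0.22 (edgeR adjusted p = 0.9998). Its paralogue Eif5a2 was at 0 counts in both libraries labelled WT and in Ythdf3-/- 3, and had 54 and 90 counts in Ythdf3-/- 1 and 2. Zero counts allow up to 0.180 CPM in WT 1 and 0.335 CPM in WT 2, against 8.49 and 9.91 CPM in those 2 libraries. Eif6, which keeps large subunits from joining too early, had 251, 257.5, 273, 422 and 289 CPM (log2 fold change 0.28, SE 0.39), and the difference was 0.04 without Ythdf3-/- 2. Eif5, the GTPase activator of eIF2, was level at 455, 428, 611, 349.8 and 463 CPM.

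**Figure D4:**
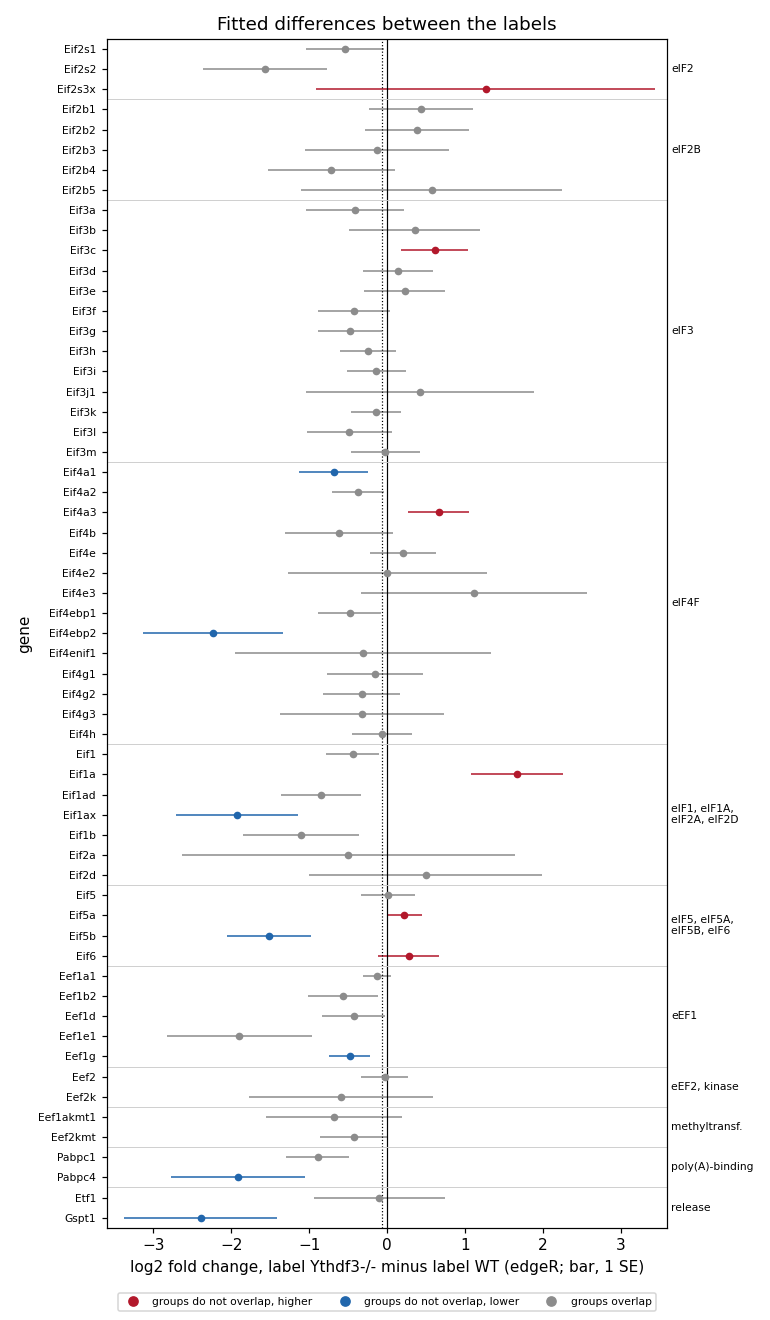
Log2 fold change (Ythdf3-/- label minus WT label, edgeR) of 59 of the 61 factors with 1 SE to each side; Eif4ebp3 and Eif5a2, whose SE is above 2.5, are left out. Red and blue mark genes whose groups do not overlap, higher and lower under the Ythdf3-/- label, and the dotted line is the median of all genes tested, -0.06; none of the genes passed the adjusted test.

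Eef1a1 varied least between libraries of all 61 messages. Its protein delivers aminoacyl-tRNA. The level was 5602, 5914, 5653, 6098 and 5062 CPM, with a coefficient of variation of 6.93% over the 5 libraries (log2 fold change -0.13, SE 0.19, edgeR adjusted p = 0.9998). Of its 100-base stretches 26.7% recur in 10 other annotated genes, so part of its reads may have been counted elsewhere or dropped. Eef2, the translocase, had 955, 1038, 761, 1251 and 1112 CPM (log2 fold change -0.03, SE 0.30), with a sign that turned to 0.06 under scaling by library totals. Its inhibitory kinase Eef2k was low and uneven, at 90.3, 31.8, 54.0, 61.5 and 11.5 CPM.

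The exchange complex that recharges eEF1A is made of Eef1b2, Eef1d and Eef1g. Eef1g stood at 933, 1018, 756, 737 and 745 CPM, and the groups did not overlap. The 3 libraries labelled Ythdf3-/- had a mean of 746 ± 9.22 CPM (SD, n = 3). The log2 fold change of -0.48 (SE 0.26, edgeR adjusted p = 0.9998) ranged from -0.58 to -0.36 when single libraries were left out. Exact copies of 49.4% of its 100-base stretches occur in 4 other annotated genes. Eef1b2 had 410.3, 817, 647, 344 and 341 CPM and Eef1d 451, 644, 268, 505 and 531 CPM, both with overlapping groups. Eef1e1, which belongs to the complex of tRNA synthetases, had 51.7, 220.3, 56.8, 45.1 and 16.1 CPM, highest in WT 2. All 5 genes of the group were fitted lower under the Ythdf3-/- label, with a median of -0.48 that lay below all genes (-0.42). Without WT 2 the median was -0.08, still below all genes in that fit (-0.30). The methyltransferases of elongation factors, Eef1akmt1 and Eef2kmt, had overlapping groups, with ranges of 33.3 to 102 and 152 to 249 CPM.

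Poly(A)-binding proteins bridge the tail of the mRNA to eIF4G. Pabpc1, the main form, had 669, 1166, 740, 361 and 492 CPM, highest in WT 2 and lowest in Ythdf3-/- 2 and 3 (log2 fold change -0.89, SE 0.40; edgeR adjusted p = 0.983). Without WT 2 the difference was -0.37. Pabpc4 had 79.1, 158, 23.4, 52.7 and 24.7 CPM and non-overlapping groups (log2 fold change -1.91, SE 0.87; edgeR adjusted p = 0.983), and -1.27 without WT 2. For 49.9% of its 100-base stretches the same bases occur in other annotated genes. The share of Pabpc1 in the counts of both was between 87.3% and 96.9% in all 5 libraries.

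Of the termination factors, Gspt1 was lower and Etf1 level between the labels. Gspt1, the GTPase eRF3 (chromosome 16, 11219292 to 11254325), had 1312, 1234, 147, 99 and 228 counts. In CPM these were 78.8 and 138 against 23.1, 10.9 and 32.5, with groups apart (log2 fold change -2.39, SE 0.98; edgeR adjusted p = 0.973). Leaving out each library in turn gave values from -2.77 to -1.86. Exons of Gspt1 overlap those of 2610020C07Rik in the annotation, with the limit given for Eif5b. Etf1, the stop codon reader eRF1 and partner of eRF3, was level at 58.2, 74.5, 64.3, 86.9 and 46.6 CPM (log2 fold change -0.10, SE 0.84).

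The more abundant factors varied less. The 28 factors with a mean of at least 200 CPM had a median coefficient of variation of 25.7% over the 5 libraries, and the 33 below that mean had 60.1%. The same medians were 32.2% for 911 genes and 85.0% for 10235 genes over all genes tested. In 11 of 61 factors (18.0%) the highest library was at least 10 times the lowest, against 59.3% of all genes. No factor had at least 90% of its summed CPM in 1 library, as 1.72% of all genes did. These last shares were not matched for level. A mean of at least 200 CPM was reached by 28 of 61 factors but by 911 of 11146 genes. In these 30-cell samples fewer cells with a message and less of it per cell cannot be told apart.

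Regulators of these factors outside the naming rule were read from a list of 48 genes; the table holds 47 of them and 46 were tested. None passed edgeR after adjustment, and DESeq2 called 1, Pelo. In edgeR 30 were fitted lower and 16 higher under the Ythdf3-/- label, with a median of -0.41, beside 52.2% lower and -0.06 over all genes. Groups were apart for 3 that were higher and 7 that were lower (21.7%), near the 20.7% of all genes. The smallest p belonged to Pelo, which rescues stalled ribosomes, with 604, 124, 2, 3 and 3 counts (edgeR adjusted p = 0.964). Paip2, a protein that binds and restrains PABPC1, stood next with 269, 383.5, 500.2, 580.4 and 660 CPM (log2 fold change 0.73, SE 0.35, edgeR adjusted p = 0.983; 0.47 without WT 1). Both were apart between the labels, in opposite directions.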

How the data were processed

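For 5 Smart-seq2 libraries the authors deposited raw counts of reads by gene symbol. The submitters' processing notes name HISAT2 2.2.1, HTSeq 0.12.4 and mm10; annotation, strandedness and handling of multi-mapped reads were not given in the sources used here. Counts were fitted in R 4.3.3 with the edgeR 4.0.16 quasi-likelihood test (TMM, filter by group, robust), with Benjamini-Hochberg adjustment over all 11146 genes kept and a threshold of 0.05; each SE is the fold change over the root of F. Alternatives were DESeq2 1.42.0, limma 3.58.1 voom, other scalings and filters, the replicate block and libraries left out. The fit was tested on simulated counts. A high rate of calls for large changes was required only at a dispersion set low, so that run does not show what the fit could miss here. The common biological coefficient of variation fitted to these counts was 1.261. Gene positions, lengths and exact 100-base matches come from GENCODE M21 (GRCm38, the same assembly as mm10), where all 61 genes matched by symbol. One count was worth 0.0601 to 0.157 CPM.

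The members and lists were chosen with earlier results of these data known. Named were 30 fixed genes, the 2 with the smallest p in each group, those whose groups did not overlap, those with at least 90% of their CPM in 1 library, and the 2 regulators with the smallest p; other factors are given as ranges or said to be chosen after their values were seen. The series text ascribes the samples to different mice. Wilson intervals and the limit of 3 counts behind a 0 cover counting error only, since reads carry no molecule identifiers.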

Additional observations from a re-analysis of the deposited data

How the results depend on the processing

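No factor was called under any of the 15 alternative fits. Over all genes the count of 0 became 21 with no low-count filter and 605 with DESeq2, and was 0 to 1 with libraries left out (1 without WT 1). Labels give no litter or batch behind the replicate numbers, and deviations of same-numbered libraries correlated at -0.004 and 0.009. With 2 libraries labelled WT their deviations from the mean mirror each other. These correlations therefore cannot tell whether the numbers pair the samples. With the replicate block the factors' median log2 fold change was -0.11 in place of -0.32, which is 0.040 above all genes in that fit and no longer below them, and no factor was called. With libraries left out (each in turn, or WT 2 and Ythdf3-/- 1 together) that median ran from -0.41 to -0.034. Medians of groups ran from -0.80 to 0.18 for eIF2, -0.17 to 0.51 for eIF3, 0.020 to 0.65 for eIF2B, -0.60 to 0.061 for eIF4F, -0.70 to -0.084 for eEF1 and -0.58 to 0.086 for eEF2 with its kinase. The median of all genes was 0.31 without WT 1 and 0.22 without WT 2, over the larger sets of genes kept there. Group medians ran from -1.28 to 0.012 for the eIF1 and eIF1A group and 0.0059 to 0.32 for the eIF5 to eIF6 group. The ranges were -1.81 to -0.82 for the poly(A)-binding proteins, -1.54 to -0.86 for release factors and -0.88 to -0.19 for the methyltransferases. From 19 to 40 factors then had groups that did not overlap (40 without WT 1), as fewer libraries overlap less.

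Single factors changed sign with libraries left out: Eif2s2 from -2.33 to 0.18, Eif2b4 from -1.45 to 0.99, Eif2b5 from -0.35 to 3.76, Eif3a from -1.13 to 1.11, Eif3b from -0.53 to 3.03, Eif4g1 from -0.64 to 0.58 and Eif4g2 from -0.68 to 0.15. The same held for Eif1 from -0.78 to 0.012, Eif5 from -0.22 to 0.18, Eef1b2 from -1.01 to 0.073, Eef2 from -0.19 to 0.25, Eef2k from -1.37 to 0.30 and Etf1 from -0.36 to 0.15. Eef2 (-0.028) was 0.0023 with RLE, 0.0013 with upper quartile factors, 0.059 with library totals, 0.0072 with DESeq2 and 0.0092 with voom. Voom also turned Eif3a to 0.27, Eif4g1 to 0.11 and Eif5 to -0.062, and no low-count filter turned Eif5 to -0.0043. With the replicate block Eif3a was 0.082, Eif4g1 0.18, Eif4g2 0.035, Eif5 -0.012, Eef2k 0.027 and Etf1 0.11. The cause was not tested.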
